A study of Mus musculus with 36 samples.

Results

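The 10 genes described here belong to the circadian clock: Arntl, Per1, Per2, Per3, Cry1, Ciart, Nr1d1, Nr1d2, Dbp and Tef. They were chosen by symbol out of 24421 gene symbols, to ask whether the groups of mice differ in genes that follow the time of day, and all 10 passed the filter on low values in each comparison. The data are 36 RNA sequencing libraries of mouse hippocampus made from polyadenylated RNA, in 6 groups of 6 with 3 females and 3 males each. The aging arm holds C57BL/6 mice: 18-month-old mice given a nanoligomer, old mice of 18 months without it, and young mice of 8 months. The transgenic arm holds mice of 4 months: APP/PS1 mice given the nanoligomer, APP/PS1 mice without it, and non-carrier littermates. APP/PS1 is an amyloid model that carries mutant human amyloid precursor protein and presenilin transgenes, and nanoligomers are synthetic antisense agents with a peptide nucleic acid backbone. The transgene line and its promoter, the dose and length of treatment, and the time of day at which mice were killed are absent from the sources used here. Time of collection and group therefore cannot be told apart.

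In the mammalian clock, BMAL1 (encoded by Arntl) and CLOCK bind E-box sequences and switch on the Per, Cry, Nr1d and Dbp genes. PER and CRY proteins then enter the nucleus and repress BMAL1 and CLOCK, while REV-ERB proteins, the products of Nr1d1 and Nr1d2, repress Arntl, so that Arntl transcripts peak opposite to those of Dbp and the Per genes in many mouse tissues. DBP and TEF, PAR bZIP factors, act through D-boxes on output genes and on Per genes. The hippocampus holds such a clock, set by the suprachiasmatic nucleus of the hypothalamus.

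Promoter letters are shown for 6 of the members whose windows hold matches to the motifs named for the clock's own factors. Each window spans 250 bases before to 50 bases after a RefSeq start on GRCm38.p6 and is written 5′ to 3′ on the gene's strand. Capitals mark matches, on either strand, to the E-box CACGTG, the E-prime box CACGTT, the D-boxes TTATGTAA and TTACGTAA, the half-site AGGTCA of REV-ERB and ROR receptors, and the cyclic AMP response element TGACGTCA. No match in the members' windows overlapped another.
Ciart promoter, chr3:95882179-95882478, minus strand: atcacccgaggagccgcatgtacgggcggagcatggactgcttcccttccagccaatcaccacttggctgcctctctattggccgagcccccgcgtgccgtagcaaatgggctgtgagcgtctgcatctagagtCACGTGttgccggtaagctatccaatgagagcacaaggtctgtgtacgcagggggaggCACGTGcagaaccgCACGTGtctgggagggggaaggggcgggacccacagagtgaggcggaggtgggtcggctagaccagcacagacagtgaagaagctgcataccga
Cry1 promoter, chr10:85185005-85185304, minus strand: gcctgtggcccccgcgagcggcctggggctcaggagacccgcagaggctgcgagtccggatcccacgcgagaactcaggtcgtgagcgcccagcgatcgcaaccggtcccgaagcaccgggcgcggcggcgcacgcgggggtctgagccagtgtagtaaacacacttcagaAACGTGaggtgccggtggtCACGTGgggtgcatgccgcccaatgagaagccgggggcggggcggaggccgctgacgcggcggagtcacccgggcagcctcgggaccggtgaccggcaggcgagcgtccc
Per1 promoter, chr11:69098699-69098998, plus strand: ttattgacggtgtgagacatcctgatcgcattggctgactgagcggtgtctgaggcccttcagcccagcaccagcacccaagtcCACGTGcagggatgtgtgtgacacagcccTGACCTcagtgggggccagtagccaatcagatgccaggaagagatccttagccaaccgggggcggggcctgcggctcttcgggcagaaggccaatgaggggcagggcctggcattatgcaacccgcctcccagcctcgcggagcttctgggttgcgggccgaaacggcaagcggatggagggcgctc
Tef promoter, chr15:81802423-81802722, plus strand: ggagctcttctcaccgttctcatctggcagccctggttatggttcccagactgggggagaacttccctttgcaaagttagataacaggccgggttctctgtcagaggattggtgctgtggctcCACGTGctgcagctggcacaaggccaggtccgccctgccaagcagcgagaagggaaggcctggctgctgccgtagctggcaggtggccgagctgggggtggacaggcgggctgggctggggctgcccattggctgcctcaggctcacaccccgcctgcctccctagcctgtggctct
Per3 promoter, chr4:151044616-151044915, minus strand: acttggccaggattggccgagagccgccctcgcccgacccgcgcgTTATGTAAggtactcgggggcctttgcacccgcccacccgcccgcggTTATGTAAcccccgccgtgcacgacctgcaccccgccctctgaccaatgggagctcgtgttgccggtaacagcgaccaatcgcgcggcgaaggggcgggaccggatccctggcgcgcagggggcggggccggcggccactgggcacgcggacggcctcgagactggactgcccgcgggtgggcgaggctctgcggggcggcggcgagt
Nr1d1 promoter, chr11:98775328-98775627, minus strand: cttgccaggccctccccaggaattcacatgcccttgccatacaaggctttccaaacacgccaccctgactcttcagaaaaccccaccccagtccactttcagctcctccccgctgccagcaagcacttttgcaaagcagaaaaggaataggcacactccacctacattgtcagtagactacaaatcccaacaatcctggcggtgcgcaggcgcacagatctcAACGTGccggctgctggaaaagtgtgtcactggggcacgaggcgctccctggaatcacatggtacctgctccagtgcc

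Ciart held 3 E-boxes, and Cry1, this Per1 window and Tef held 1 each. Cry1 also held 1 E-prime box and the Per1 window 1 half-site, both on the other strand. Per3 held 2 D-boxes, and the window of Nr1d1 held 1 E-prime box, written here on the other strand. Of 32851 promoter windows of the same length, 7.15% held an E-box, 4.68% an E-prime box, 1.06% a D-box, 16.3% the half-site and 1.79% the cyclic AMP response element. Windows were found for 9 of the 10 members, 12 windows in all. Among those not printed, another Tef window held 1 E-box, and the Nr1d2 window and 1 Arntl window held 1 half-site each. The Dbp window, the other Arntl window and the other Per1 window held no match. A match describes the letters and is not a measured binding site, and elements outside these windows were not searched.

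In the GENCODE annotation of GRCm38, all 10 members are protein-coding genes and the reads are summed over each gene. Arntl lies on chromosome 7 from 113207465 to 113314126, and Dbp on the same chromosome from 45705088 to 45710203. Per1 lies on chromosome 11 from 69095217 to 69109960, and Nr1d1 on that chromosome from 98767932 to 98775333. Per2 lies on chromosome 1 from 91415982 to 91459324, Per3 on chromosome 4 from 151003652 to 151044665 and Cry1 on chromosome 10 from 85131700 to 85185064. Ciart lies on chromosome 3 from 95878503 to 95882251, Nr1d2 on chromosome 14 from 18204054 to 18239127 and Tef on chromosome 15 from 81802421 to 81826863. Of the exonic bases of Dbp, 18.0% are also exonic in Sphk2 on the opposite strand, and of those of Nr1d1, 8.55% are exonic in Thra on the opposite strand, a gene with a mean of 711 CPM (reads of the gene relative to all reads of the library). The sources used here do not say whether counting used strand, so reads from those stretches cannot be assigned.

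The libraries held 27.6 to 46.3 M reads and 17358 to 19284 genes with reads, except APP/PS1 nanoligomer female 3 with 0.913 M reads and 9509 genes, which was left out, giving 35 libraries. Levels across groups are CPM from whole reads. Within each comparison, values are the deposited normalized counts, and fold changes are on the scale of log2(normalized count + 1). The labels number the libraries of a group within each sex and do not state that each is a separate animal, so the p-values measure the spread between these samples, which may be technical. In bulk tissue, fewer cells of a type and less RNA per cell cannot be told apart.

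Markers of neighbouring brain regions differed between libraries, and these differences stand beside the members' values below where they moved with them. Markers of striatal neurons summed to over 500 CPM in young male 2, old male 3, old nanoligomer female 3, APP/PS1 female 1 and APP/PS1 nanoligomer male 2, and markers of thalamus and habenula did so in young male 1. The striatal sum of 7 genes ranged from 132 to 1954 CPM in old nanoligomer, 118 to 557 in old, 119 to 1103 in young, 99.6 to 966 in APP/PS1 nanoligomer, 109 to 1786 in APP/PS1 and 103 to 140 CPM in littermate libraries. The thalamic and habenular sum of 7 genes ranged from 84.2 to 112 CPM in old nanoligomer, 87.9 to 397 in old, 78.5 to 800 in young, 73.0 to 119 in APP/PS1 nanoligomer, 89.4 to 229 in APP/PS1 and 80.4 to 115 CPM in littermate libraries. No gene of either list was at 0 in a whole group. Hippocampal lists were present in each group: dentate granule markers summed to 99.8 to 440 CPM and CA1 markers to 265 to 853 CPM over the 35 libraries. Markers of the suprachiasmatic and neighbouring hypothalamus summed to at most 57.5 CPM apart from 392 CPM in APP/PS1 female 1 and 241 CPM in young male 1. Of these genes, Six6, Nms and Hcrt were at 0 in 23, 21 and 12 of the 35 libraries. Oxt was at 0 in 3, Lhx1 and Prok2 in 2 each and Avp in 1. Vip was at 0 in none, with a median of 17.3 CPM. Some results below are also given without these 6 libraries, and not every value that moves without them is shown.

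Compared per kilobase of exon, Nr1d1, a REV-ERB repressor, had the highest level of the 10 members, at 108 ± 13.6 CPM per kb (mean ± SD, n = 35). Tef followed at 37.6 ± 2.94 CPM per kb, Per1 at 22.7 ± 3.70, Dbp at 18.5 ± 3.70 and Nr1d2 at 12.7 ± 1.79. Per2 had 7.92 ± 0.993, Per3 5.60 ± 0.744, Arntl 5.48 ± 0.799, Ciart 5.22 ± 1.21 and Cry1 3.78 ± 0.843 CPM per kb. The members varied between libraries to different degrees. The highest library held 1.41 times the CPM of the lowest for Tef and 2.77 times for Ciart, with the other members between. The median coefficient of variation within a group ran from 4.94% for Tef to 19.2% for Ciart.

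**Figure D1:**
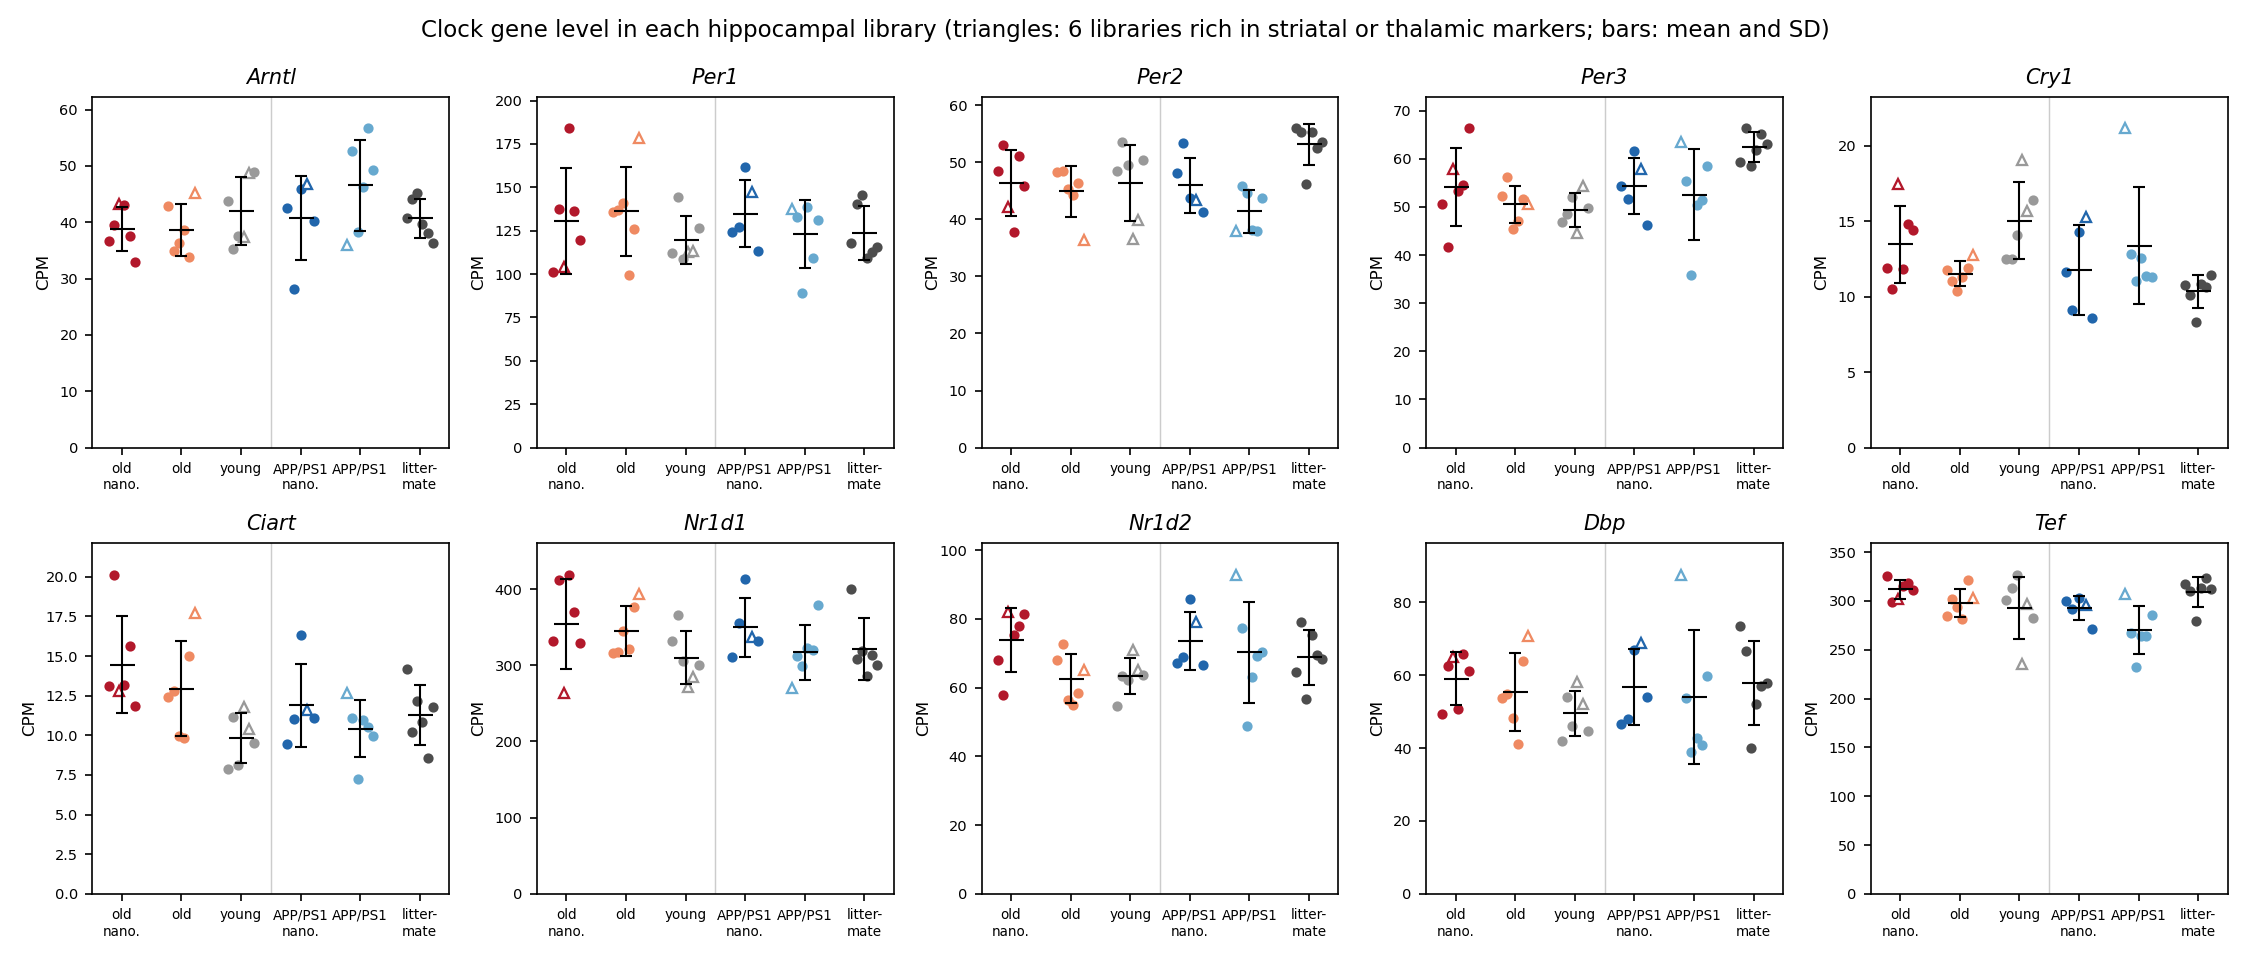
Level of each member in CPM (vertical axes, starting at 0) in 35 libraries by group; points are libraries, triangles the 6 with striatal or thalamic marker sums over 500 CPM, and bars the mean and SD. Groups compared with each other overlap in every panel except APP/PS1 and littermate mice for Per2, which come within 45.9 and 46.3 CPM, and the highest Cry1 value of 5 groups is a triangle, reaching 21.1 CPM in APP/PS1. By normalized counts the APP/PS1 and littermate libraries overlap for Per2, and the share of all genes whose groups do not meet in CPM was not counted.

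The highest group mean was 1.14 times the lowest for Per1, 1.15 for Tef, 1.14 for Nr1d1, 1.18 for Nr1d2, 1.19 for Dbp, 1.205 for Arntl, 1.26 for Per3, 1.28 for Per2, 1.45 for Cry1 and 1.47 for Ciart. When groups were put in order of their mean, 3 of the 50 gaps between neighbours were larger than the larger SD of the pair. For Per2, littermates stood first at 53.1 ± 3.62 CPM with the next group, young mice, at 46.4 ± 6.65 CPM. The order then ran old nanoligomer, APP/PS1 nanoligomer, old and APP/PS1 (41.4 ± 3.77 CPM), with no gap beyond the SD. For Per3, APP/PS1 nanoligomer mice had 54.3 ± 5.90 CPM, below littermates at 62.4 ± 3.10 CPM, and old nanoligomer, APP/PS1, old and young mice followed within their spread. For Cry1, old mice had 11.5 ± 0.816 CPM, above littermates at 10.4 ± 1.08 CPM. Young mice stood highest for Cry1 at 15.04 ± 2.55 CPM. For Arntl, Per1, Nr1d1, Nr1d2, Dbp, Tef and Ciart no neighbouring groups differed by more than the larger SD. Dbp means, for example, ran from 59.1 ± 7.23 CPM in old nanoligomer to 49.5 ± 6.15 CPM in young mice, and Arntl means from 46.5 ± 8.10 CPM in APP/PS1 to 38.6 ± 4.58 CPM in old mice. Arms differ in age and table, and no test was made across them. Some libraries were lowest for several members: APP/PS1 female 3 was the lowest of its group for 7 of the 10 members, littermate female 3 and APP/PS1 nanoligomer male 3 for 6 each and old male 1 for 5. APP/PS1 female 1, old male 3 and APP/PS1 nanoligomer male 1 were the highest of their groups for 6 members each. APP/PS1 female 3 also had the highest microglial marker sum, 814 CPM, in a group whose median was 362 CPM.

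None of the 10 members passed the adjusted threshold in limma in any of the 4 comparisons, and by normalized counts the groups of every member overlapped in each of them. Per2 was lower in APP/PS1 mice and Cry1 lower in old mice by a similar amount, and these were the members called by DESeq2. In old against young mice, limma called 0 of 10 members (0.0361% of all genes tested), edgeR 0 of 10 (0.0361%) and DESeq2 1 of 10 (0.74%). At an unadjusted limma p under 0.05 there were 2 of 10 members (6.13% of all genes), and 0 of 10 had groups that did not overlap (0.505%). In old nanoligomer against old mice, limma, edgeR and DESeq2 called 0 members (0%, 0% and 0.0121% of all genes), 1 member had an unadjusted p under 0.05 (7.22%) and none had separate groups (0.254%). In APP/PS1 against littermate mice, limma called 0 members (0.0486%), edgeR 0 (0.0486%) and DESeq2 1 (1.54%), while 4 members had an unadjusted p under 0.05 (10.2%) and none had separate groups (0.85%). In APP/PS1 nanoligomer against APP/PS1 mice, limma, edgeR and DESeq2 called 0 members (0%, 0% and 0.0434%), 1 member had an unadjusted p under 0.05 in limma (2.96%) and none had separate groups (0.31%). The old libraries serve in the first pair of comparisons and the APP/PS1 libraries in the second pair, so values within a pair are not independent.

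**Figure D2:**
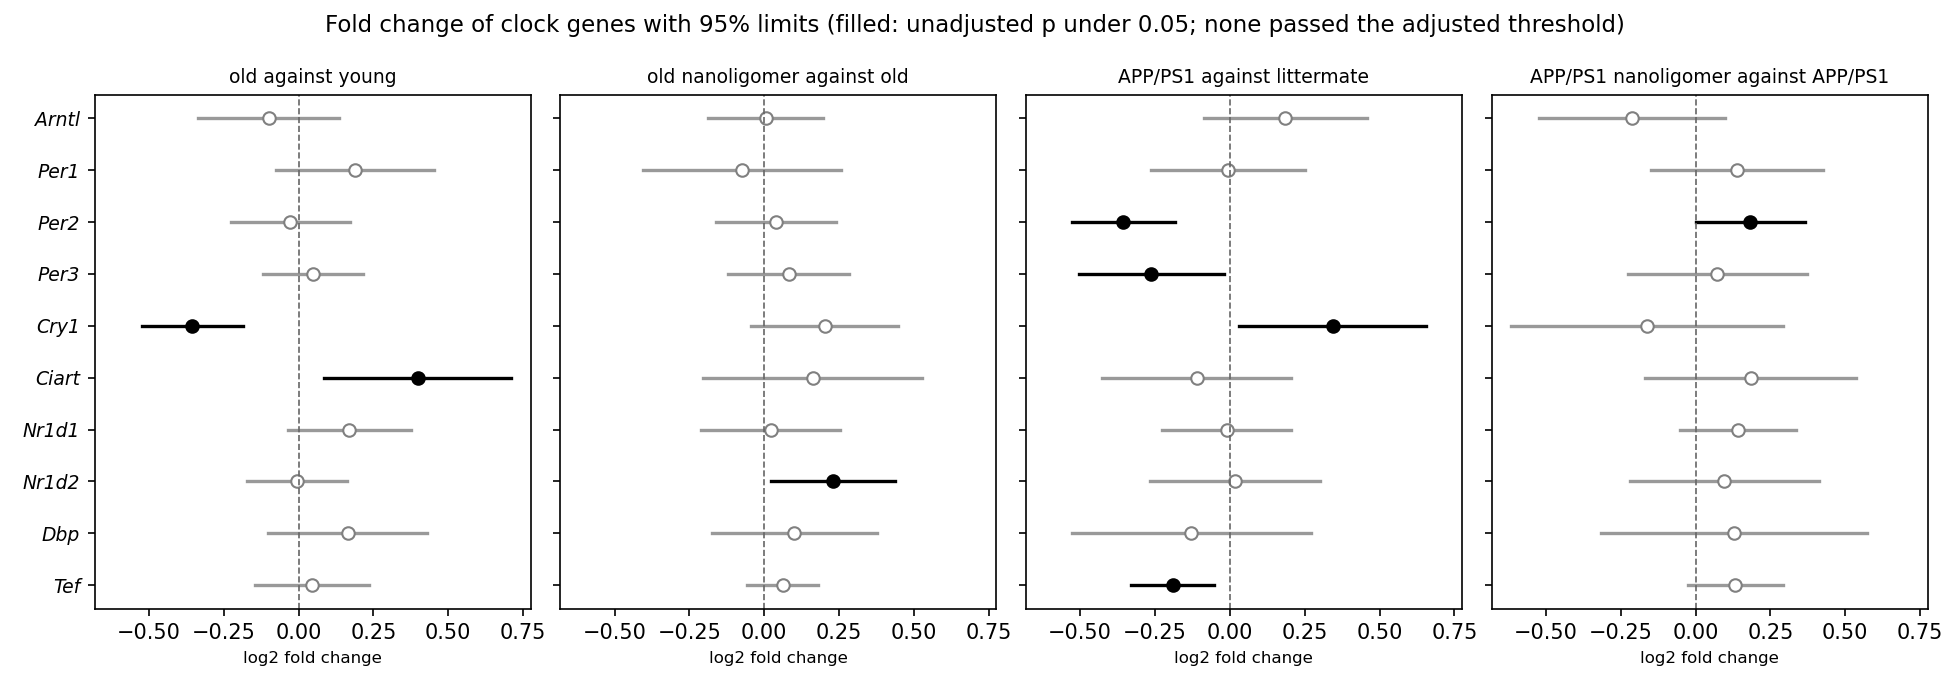
Log2 fold change of each member (horizontal axis) with 95% limits from limma in the 4 comparisons; filled points have an unadjusted p under 0.05. Estimates lie between -0.36 and 0.40, and the intervals of most members include 0.

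Arntl, the activator, did not pass in any comparison. Its normalized counts ran from 1391 through a median of 1509 to 1835 in old mice and from 1402 through 1650 to 2024 in young mice, which is -0.10 on the log2 scale (95% limits -0.34 and 0.14; limma adjusted p = 0.906). In APP/PS1 mice they ran from 1238 through 1785 to 2146, against 1333 through 1456 to 1648 in littermates (log2 0.19, 95% limits -0.09 and 0.46; adjusted p = 0.661). The APP/PS1 values spread on both sides of all littermate values. The estimate was 0.0048 (95% limits -0.19 and 0.20) in old nanoligomer against old mice and -0.21 (95% limits -0.52 and 0.10) in APP/PS1 nanoligomer against APP/PS1 mice. With age, the Arntl estimate in males was -0.17, and -0.42 without the marker-rich libraries, which leaves 1 young male. In females it was -0.03 in both fits.

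Per2, a PER repressor, had the smallest p of the members in the transgene comparison. In APP/PS1 mice the normalized counts were 1303, 1713 and 1609 in females 1 to 3 and 1421, 1440 and 1635 in males 1 to 3, against 1997, 2048 and 1687 in littermate females and 2035, 1915 and 1962 in littermate males. Littermate female 3 alone reached into the range of the APP/PS1 mice, where it lies below APP/PS1 female 2. In CPM, a scale on which the same libraries are divided by their total reads, the groups did not meet: Per2 reached at most 45.9 CPM in APP/PS1 mice and at least 46.3 CPM in littermates. The share of all genes whose groups do not meet in CPM was not counted. The means were 1520 ± 156 in APP/PS1 and 1941 ± 134 in littermate mice (SD, n = 6 each), a log2 fold change of -0.36 ± 0.080 (SE; 95% limits -0.53 and -0.18). The difference did not pass in limma (adjusted p = 0.182) or edgeR (adjusted p = 0.166) and was called by DESeq2 at a log2 fold change of -0.35 (adjusted p = 0.0123). Leaving out each library in turn kept the limma estimate between -0.40 and -0.31, with a smallest adjusted p of 0.0510. Estimates of dentate granule markers were below 0 in APP/PS1 against littermate mice for 7 of 7 genes, with a median of -0.95 on the log2 scale (129 to 284 CPM in APP/PS1 and 237 to 330 CPM in littermate libraries, none at 0). Those of striatal markers were above 0 for 7 of 7, with a median of 1.01, and limma called 0 genes of either list. With the summed striatal and dentate markers in the fit the Per2 estimate was -0.24, and without APP/PS1 female 1, the one marker-rich library of this comparison, it was -0.31.

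In the other comparisons Per2 did not pass in limma, edgeR or DESeq2. In APP/PS1 nanoligomer mice its normalized counts were 1163 to 1440 with a median of 1261, against 982 to 1297 with a median of 1141 in APP/PS1 mice (log2 0.18 ± 0.083, 95% limits 0.00037 and 0.37; limma adjusted p = 0.997). Estimates of choroid plexus markers were above 0 for 8 of 8 genes, 0 of them called by limma, with a log2 median of 2.96 (62.9 to 3982 CPM in APP/PS1 nanoligomer and 18.0 to 62.6 CPM in APP/PS1 libraries), and their part in the result was not tested. Per2 was the 1 member under an unadjusted p of 0.05 there, and it was not under it in edgeR or DESeq2. The log2 fold change was -0.03 (95% limits -0.23 and 0.17) in old against young mice and 0.04 (95% limits -0.16 and 0.24) in old nanoligomer against old mice.

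Per3, another PER family member, had normalized counts of 1295 to 2183 with a median of 2004 in APP/PS1 mice and 2118 to 2454 with a median of 2291 in littermates. APP/PS1 female 3 was the lowest library at 1295, and APP/PS1 female 1 and male 3 reached into the littermate range. The log2 fold change was -0.26 ± 0.112 (95% limits -0.50 and -0.02; limma adjusted p = 0.448), and without female 3 of the APP/PS1 group it was -0.15. With each library left out in turn it ran from -0.32 to -0.15. In females alone it was -0.31, and -0.45 without the marker-rich APP/PS1 female 1. The Per3 estimates in the other 3 comparisons were 0.05, 0.08 and 0.07. Per1, the PER gene that also answers to cyclic AMP and glucocorticoid signals, did not pass: its log2 fold changes were 0.19 (95% limits -0.08 and 0.45) with age, -0.07 (-0.41 and 0.26) with treatment of old mice, -0.0056 (-0.26 and 0.25) in APP/PS1 against littermate mice, and 0.14 (-0.15 and 0.43) with treatment of APP/PS1 mice.

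Cry1, a CRY repressor, had the smallest p of the members in the age comparison. In old mice its normalized counts were 475, 438 and 422 in females 1 to 3 and 452, 492 and 517 in males 1 to 3, against 509, 497 and 571 in young females and 718, 649 and 661 in young males. Old male 3 was the one old library inside the young range. The means were 466.2 ± 35.2 in old and 601 ± 89.3 in young mice (SD, n = 6 each), a log2 fold change of -0.35 ± 0.078 (SE; 95% limits -0.52 and -0.19). The difference did not pass in limma (adjusted p = 0.240) or edgeR (adjusted p = 0.227) and was called by DESeq2 at -0.36 (adjusted p = 0.00829). Estimates of striatal markers were below 0 in old against young mice for 7 of 7 genes, with a log2 median of -0.55, and limma called 0 of them. Those of choroid plexus markers were below 0 for 8 of 8, 0 of them called, with a median of -1.94 (22.6 to 247 CPM in old and 13.5 to 4134 CPM in young libraries, none at 0 in a group). Without old male 3 and young males 1 and 2, the marker-rich libraries of this comparison, the Cry1 estimate was -0.31, and with the striatal and dentate sums in the fit it was -0.34. The part of the choroid plexus markers was not tested.

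In APP/PS1 against littermate mice the Cry1 estimate was above 0. In APP/PS1 mice its normalized counts were 727, 477 and 400 in females and 470, 430 and 422 in males, against 385, 374 and 303 in littermate females and 398, 389 and 419 in littermate males. All APP/PS1 libraries except female 3 were above all littermates, and female 1 stood far above the rest. The log2 fold change was 0.34 ± 0.144 (95% limits 0.03 and 0.66; limma adjusted p = 0.442). Without APP/PS1 female 1, the library with 1786 CPM of striatal markers and the one marker-rich library of this comparison, the estimate was 0.21, and with the marker sums in the fit it was 0.06. The estimate was 0.20 (95% limits -0.04 and 0.45) in old nanoligomer against old mice and -0.16 (-0.61 and 0.29) in APP/PS1 nanoligomer against APP/PS1 mice.

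Ciart, a repressor of BMAL1 and CLOCK with the 3 E-boxes printed above, had normalized counts of 392 to 717 with a median of 504 in old mice and 321 to 444 with a median of 408 in young mice. Old males 2 and 3 and old females 1 and 2 were above all young libraries, while old female 3 and male 1 were among them. This gave a log2 fold change of 0.40 ± 0.143 (95% limits 0.09 and 0.71; limma adjusted p = 0.667), 0.37 without the marker-rich libraries. Its estimates were 0.16 (-0.20 and 0.53) in old nanoligomer against old, -0.11 (-0.43 and 0.21) in APP/PS1 against littermate and 0.18 (-0.17 and 0.54) in APP/PS1 nanoligomer against APP/PS1 mice. Without the marker-rich libraries, the old nanoligomer against old estimate was 0.49 in females and 0.15 in males. With them these were 0.35 and -0.03.

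Of the REV-ERB genes, Nr1d2 had normalized counts of 2187 to 3119 with a median of 2904 in old nanoligomer mice, against 2053 to 2698 with a median of 2360 in old mice. Of the treated libraries, 4 were above all old libraries. The difference was 0.23 ± 0.096 on the log2 scale (95% limits 0.02 and 0.44; limma adjusted p = 0.678), and it was -0.0058, 0.02 and 0.10 in old against young, APP/PS1 against littermate and APP/PS1 nanoligomer against APP/PS1 mice. Nr1d1 had normalized counts of 12625 to 15953 in old and 10210 to 14594 in young mice, which is 0.17 on the log2 scale (95% limits -0.03 and 0.37; adjusted p = 0.851). Its estimates in the treatment of old mice, APP/PS1 against littermate and the treatment of APP/PS1 mice were 0.02, -0.01 and 0.14.

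Dbp and Tef, the output activators, also overlapped between groups. Dbp, whose transcript has one of the strongest daily rhythms in mouse tissues, had normalized counts of 1641 to 2873 with a median of 2174 in old and 1710 to 2188 with a median of 2008 in young mice (log2 0.16, 95% limits -0.10 and 0.43; limma adjusted p = 0.865). In APP/PS1 mice Dbp ran from 1410 through a median of 1801 to 3012, the last in the striatum-rich female 1, against 1459 through 2104 to 2621 in littermates (log2 -0.13, 95% limits -0.53 and 0.27). Without that library the Dbp estimate was -0.33 in females and -0.21 in males, beside -0.05 and -0.21 with it. The treatment estimates for Dbp were 0.10 (-0.17 and 0.38) in old and 0.13 (-0.31 and 0.57) in APP/PS1 mice. Tef had normalized counts of 8398 to 10676 with a median of 10002 in APP/PS1 mice and 10186 to 11803 with a median of 11475 in littermates. Littermate female 3 was the one littermate library inside the APP/PS1 range. The log2 fold change of Tef was -0.19 ± 0.064 (95% limits -0.33 and -0.05; adjusted p = 0.333), -0.22 without APP/PS1 female 1. Its estimates were 0.05, 0.06 and 0.13 with age, treatment of old mice and treatment of APP/PS1 mice.

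Taking the 10 estimates of a comparison side by side, 6 were above and 4 below 0 in old against young mice with a median of 0.05, beside 8072 above and 8554 below with a median of -0.0039 over all genes tested. In old nanoligomer against old mice 9 were above and 1 below with a median of 0.07 (all genes 8099 and 8418, median -0.0034). In APP/PS1 against littermate mice 3 were above and 7 below with a median of -0.06 (all genes 8287 and 8188, median 0.0010). In APP/PS1 nanoligomer against APP/PS1 mice 8 were above and 2 below with a median of 0.13 (all genes 7973 and 8151, median -0.0022).

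Females and males were compared for the size of each effect. For 0 of 10 members did limma call a sex difference in any comparison (0% of all genes in each of the 4). At an unadjusted p under 0.05 the counts were 1 of 10 with age (4.39% of all genes), 0 with treatment of old mice (4.71%), 2 in APP/PS1 against littermate mice (5.1%) and 0 with treatment of APP/PS1 mice (4.52%). The member with age was Nr1d1, whose log2 fold change of old against young was 0.38 in males and -0.04 in females, a difference of 0.41 (95% limits 0.08 and 0.75; adjusted p = 0.983). The marker-rich libraries of this comparison are all males, and young male 1 was the lowest young and old male 3 the highest old library for Nr1d1. Without young males 1 and 2 and old male 3, which leaves 1 young male, the values were 0.23 in males and -0.04 in females (difference 0.26, 95% limits -0.09 and 0.62; limma adjusted p = 0.806). In APP/PS1 against littermate mice Nr1d1 had 0.21 in males and -0.23 in females (difference 0.45, 95% limits 0.09 and 0.80; adjusted p = 0.847), and 0.21 and -0.14 without APP/PS1 female 1 (difference 0.35, 95% limits 0.03 and 0.68; adjusted p = 0.908). Arntl had 0.45 in males and -0.07 in females in that comparison (difference 0.52, 95% limits 0.05 and 0.99; adjusted p = 0.847). APP/PS1 female 1 was the lowest APP/PS1 library for Arntl, and without it the value in females turned to 0.06, with 0.45 in males (difference 0.38, 95% limits -0.04 and 0.80; limma adjusted p = 0.908). Without the marker-rich libraries limma called no member for a sex difference in the comparisons other than age. With treatment of old mice, Per1 (difference 0.58, limma adjusted p = 0.597) and Nr1d2 (0.52, adjusted p = 0.503) had an unadjusted p under 0.05. In APP/PS1 against littermate mice, Per1 (difference 0.48, limma adjusted p = 0.908) and Nr1d1 were under it. The share of all genes under it was not counted in this fit. The treatment effect in APP/PS1 mice minus that in old mice was called for 0 members (0% of all genes) and had an unadjusted limma p under 0.05 for 0 members (4.35%). The differences ran from -0.36 for Cry1 (95% limits -0.86 and 0.13) to 0.21 for Per1 (95% limits -0.24 and 0.66).

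Ratios within a library, from log2(CPM + 0.5), rest little on scaling between libraries. Because Dbp and Arntl peak at opposite times in mouse tissues, their ratio is used to read the phase of a rhythm. The log2 ratio of Dbp to Arntl averaged 0.60 ± 0.240 in old nanoligomer, 0.50 ± 0.288 in old and 0.24 ± 0.326 in young mice (SD, n = 6 each). It averaged 0.48 ± 0.229 in APP/PS1 nanoligomer (n = 5), 0.17 ± 0.592 in APP/PS1 and 0.48 ± 0.353 in littermate mice (n = 6 each). The groups overlapped throughout, and the range within the APP/PS1 group alone, from -0.47 in male 2 to 1.27 in female 1, covered the values of all other libraries used. The log2 ratio of Per2 to Cry1, chosen after the values were seen and so given with no test, was 0.83 to 1.96 in APP/PS1 mice and 2.18 to 2.41 in littermates, with no overlap. Per2 and Cry1 had the lowest and highest member estimates in this comparison (-0.36 and 0.34), so the separation follows in part from the choice. The share of other pairs with separate ratios was not counted. In the aging arm the ratio of Per2 to Cry1 was 1.25 to 2.28 in old nanoligomer, 1.48 to 2.09 in old and 0.92 to 2.06 in young mice, which overlap. In APP/PS1 nanoligomer mice it was 1.48 to 2.48. In each of the 5 groups with a marker-rich library, the lowest ratio of Per2 to Cry1 was in one of them.

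**Figure D3:**
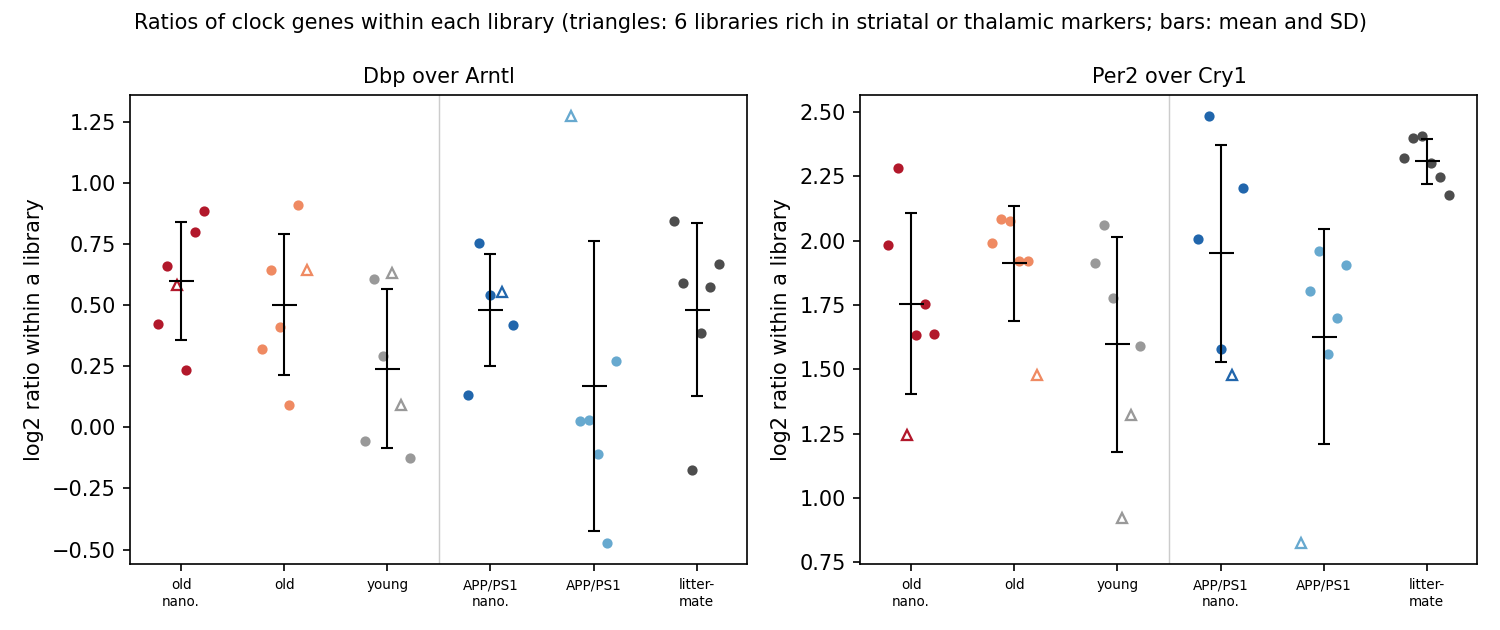
Log2 ratio of Dbp to Arntl (left) and of Per2 to Cry1 (right) within each library by group; triangles are the 6 marker-rich libraries and bars the mean and SD. For Per2 over Cry1, a pair chosen after the values were seen and not tested, the littermates lie at 2.18 or above and the APP/PS1 libraries at 1.96 or below. Triangles are the lowest points of 5 groups.

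Between libraries of the same group and sex, several members varied together. Each library's log2 CPM was taken as a deviation from the mean of its group and sex, 36 pairs of the 9 members other than Arntl were correlated over 35 libraries, and p-values came from permutation within group and sex, adjusted over the 36 pairs. This family was added after the values were seen. Of the 36, 5 pairs passed by both Pearson's r and Spearman's rho. The share of all gene pairs that would pass in the same way was not counted. Per3 and Nr1d2 had the highest r of 0.85 (rho 0.72; permutation p = 0.00013 and 0.00049; adjusted 0.00468 and 0.0176), which was 0.73 without the 2 libraries farthest from the median of Per3. It was 0.71 in the aging and 0.93 in the transgenic arm. The other 4 were Nr1d2 with Cry1 (r 0.73, rho 0.58; permutation p = 0.00283 and 0.00534; adjusted 0.0255 and 0.0384), Per3 with Tef (0.72 and 0.63; 0.00073 and 0.00132; adjusted 0.0108 and 0.0214), Dbp with Nr1d2 (0.70 and 0.62; 0.00355 and 0.00283; adjusted 0.0256 and 0.0255) and Dbp with Cry1 (0.65 and 0.60; 0.0009 and 0.00178; adjusted 0.0108 and 0.0214). Without the 2 farthest libraries these r were 0.61, 0.55, 0.54 and 0.49. In the aging and transgenic arms they were 0.79 and 0.70, 0.46 and 0.90, 0.51 and 0.79, and 0.44 and 0.74. Without the 6 marker-rich libraries they were 0.54, 0.72, 0.55 and 0.47, and that of Per3 with Nr1d2 was 0.87. By r with Dbp over the 35 libraries, Nr1d2 ranked 37 and Cry1 117 of 15968 genes, below genes that are not members.

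The r of Per2 with other members differed between all libraries and those without high marker sums. With Dbp it was 0.02 (rho 0.18; permutation p = 0.940 and 0.431; adjusted 0.967 and 0.593) over 35 libraries and 0.78 over the other 29. With Cry1 it was -0.22 (rho -0.18; permutation p = 0.279 and 0.381; adjusted 0.418 and 0.572) and 0.36, and with Nr1d2 -0.15 (rho -0.03; permutation p = 0.486 and 0.866; adjusted 0.552 and 0.917) and 0.40. For Per3 the r were -0.07 and 0.26, for Tef 0.16 and 0.36, for Ciart 0.0071 and 0.41, and for Per1 -0.18 and -0.06. For Nr1d1 they were lower over the 29, at 0.33 and 0.24, as for Arntl, at -0.13 and -0.33. The r over the 29 libraries were not tested. Of the 5 groups with marker-rich libraries, such a library was the highest for Cry1 in 5 and for Dbp in 4. It was the highest for Nr1d2, Arntl and Ciart in 3 each, and the lowest for Per2 and Nr1d1 in 3 each. For Per1, Per3 and Tef it was the highest in 1, 2 and 1. The young group holds both young males 1 and 2 of these libraries, and the share over all genes was not counted.

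**Figure D4:**
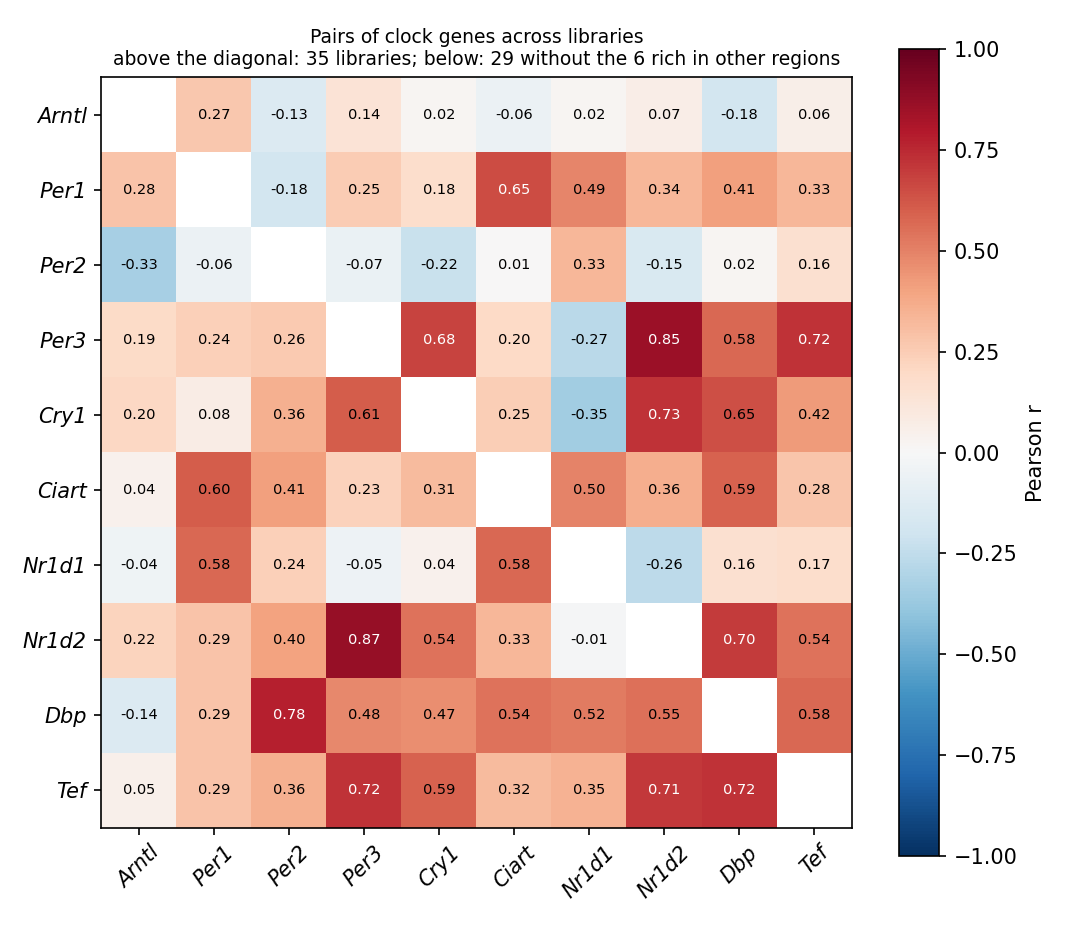
Pearson r of each pair of members over deviations from the mean of group and sex; above the diagonal over 35 libraries, below it over the 29 without the marker-rich ones. The cell of Per2 with Dbp is 0.02 above and 0.78 below, and above the diagonal the cells of Arntl lie between -0.18 and 0.27.

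Members were also set against the marker sums themselves, 20 relations over 35 libraries, added after the values were seen. None of the 20 passed the adjustment. Cry1 with the striatal sum had r = 0.73 (rho 0.53; permutation p = 0.0101 and 0.0203; adjusted 0.101 and 0.176), 0.58 without the 2 farthest libraries, 0.53 in the aging and 0.89 in the transgenic arm. Per3 with the striatal sum had r = 0.62 (rho 0.47, permutation p = 0.0342 and 0.0352, adjusted 0.121 and 0.176). Nr1d2 had 0.62 (rho 0.40, permutation p = 0.0256 and 0.0659, adjusted 0.121 and 0.216). Dbp with the striatal sum had r = 0.61 (rho 0.54; permutation p = 0.00341 and 0.00694; adjusted 0.0682 and 0.139), 0.53 without the 2 farthest. Over the 29 libraries without high marker sums, the members' striatal r ran from 0.25 for Per2 to 0.69 for Per1. There it was 0.52 for Cry1, 0.54 for Per3, 0.53 for Nr1d2 and 0.54 for Dbp. Per2 with the striatal sum had r = -0.46 (rho -0.37; permutation p = 0.0376 and 0.0756; adjusted 0.121 and 0.216), -0.33 without the 2 farthest and 0.25 over the 29 libraries. Per2 with the dentate granule sum had r = 0.27 (rho 0.22; permutation p = 0.276 and 0.330; adjusted 0.394 and 0.472) and -0.19 over the 29 libraries.

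**Figure D5:**
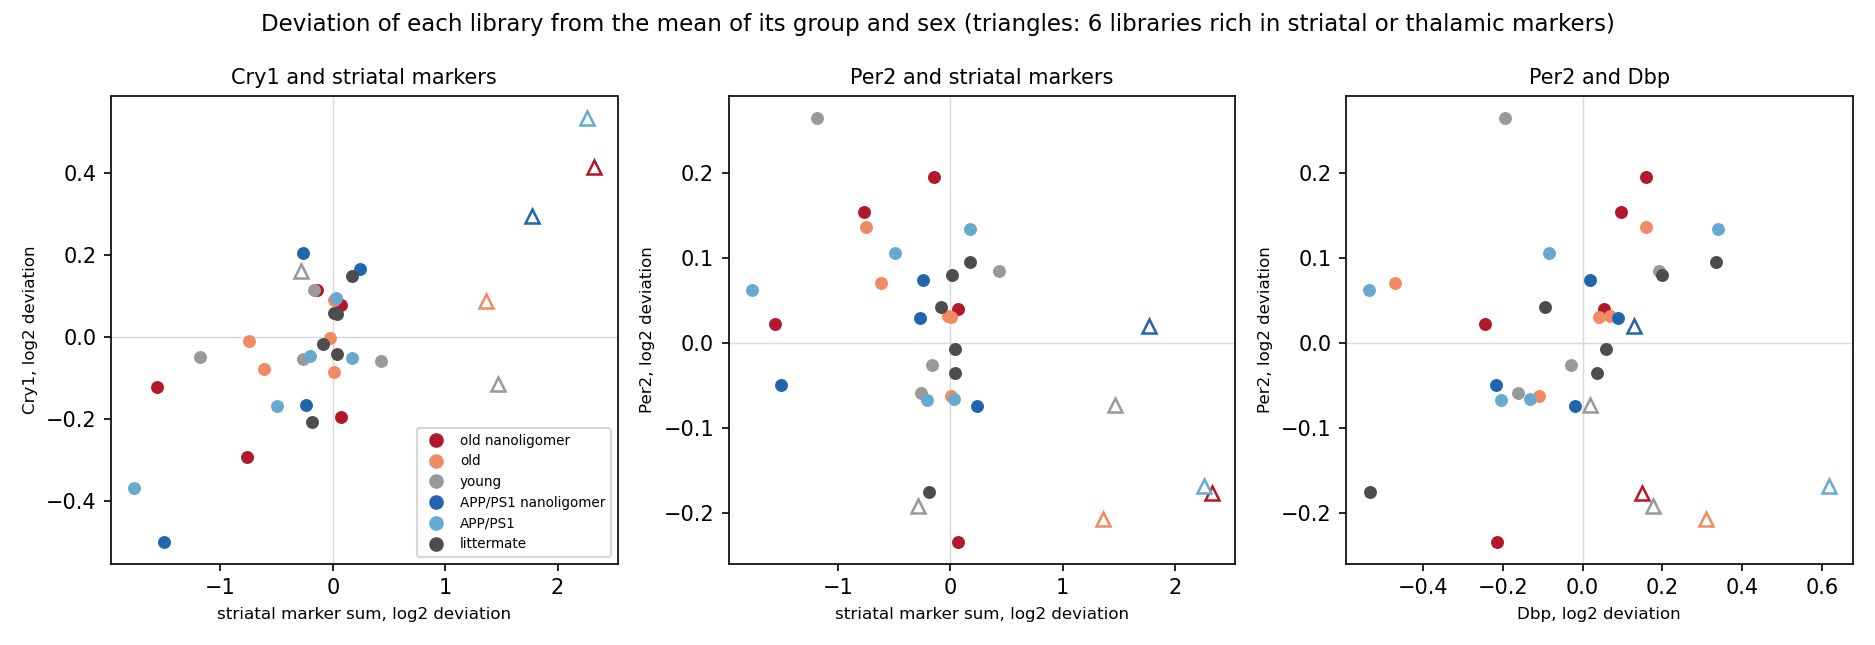
Deviation of Cry1 and Per2 from the mean of group and sex against that of the striatal marker sum, and of Per2 against Dbp, all on log2 scales; points are 35 libraries coloured by group, and triangles the 6 marker-rich ones. Libraries with higher striatal sums lie higher for Cry1 (r 0.73), and in the third panel the other 29 libraries have r 0.78.

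Arntl, whose transcripts peak opposite to those of Dbp over a day, had no relation with another member that passed. Over the 9 relations r ran from -0.18 with Dbp (rho -0.21; permutation p = 0.487 and 0.323) to 0.27 with Per1 (rho 0.23; permutation p = 0.235 and 0.280), and none passed by r or rho (smallest adjusted values 0.948 and 0.988). Without the 2 libraries farthest from the median of Arntl these were -0.18 and 0.25. In the aging and transgenic arms they were -0.16 and -0.20 for Dbp, and 0.37 and 0.17 for Per1.

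Of 15968 genes ranked by r with Dbp over the 35 libraries, Nr1d2 stood at rank 37, Cry1 at 117, Ciart at 333, Tef at 373, Per3 at 384, Per1 at 1791, Nr1d1 at 5832, Per2 at 8576 and Arntl at 11902. The genes most like Dbp, named by rule and with r over deviations as a description, were C87436 (0.84), H2afx (0.80), Pou3f4 (0.80), Fam109a (0.79), Tnk2 (0.79) and Slc22a3 (0.78). At the other end stood Fam13c (-0.81), Topbp1 (-0.80), Mpdz (-0.79), Ptgs2 (-0.78), Capza2 (-0.77) and Opcml (-0.77). For Arntl the highest were Ipcef1 (0.76), Sbno1 (0.74), Gca (0.74), Cdh12 (0.73), Flrt2 (0.73) and Slc9a9 (0.73), and the lowest Rhbdl3 (-0.79), Fndc1 (-0.76), Pbx2 (-0.75), Ptpn9 (-0.75), Wdr77 (-0.74) and Pgpep1 (-0.74). All these values come from the same libraries and so share their depth and tissue, and none of the named genes is a member.

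Other genes of the clock were read from a list of 21, among them Clock, Npas2, Cry2, Bhlhe40 and Rorb, and limma, edgeR and DESeq2 called none of them in any comparison. At an unadjusted limma p under 0.05 there were 2 with age, 1 with treatment of old mice, 2 in APP/PS1 against littermate and 0 with treatment of APP/PS1 mice, where 6.13%, 7.22%, 10.2% and 2.96% of all genes tested were under it in the same order. In old against young mice 7 were above and 14 below 0 (median log2 -0.03). Usp2, a deubiquitinase under clock control, had 0.24 ± 0.106 (log2 fold change ± SE; limma adjusted p = 0.810) and Bhlhe40, an E-box repressor, 0.21 ± 0.095 (adjusted p = 0.810). In old nanoligomer against old mice 14 were above and 7 below (median 0.08), with Btrc, a subunit of a ubiquitin ligase that acts on PER proteins, at 0.14 ± 0.050 (adjusted p = 0.678) and Npas2, a partner of BMAL1, at 0.31 ± 0.162 (adjusted p = 0.686). In APP/PS1 against littermate mice 12 were above and 9 below (median 0.06), with the kinase Gsk3b at 0.19 ± 0.084 and the ROR receptor Rorb at 0.46 ± 0.206 (adjusted p = 0.470 each). In APP/PS1 nanoligomer against APP/PS1 mice 11 were above and 10 below (median 0.03), with Fbxw11 at 0.11 ± 0.057 and Bhlhe40 at 0.33 ± 0.172 (adjusted p = 0.997 each). Of 9 tested rhythmic output genes none was called by limma, edgeR or DESeq2, with 1, 3, 0 and 0 at an unadjusted limma p under 0.05 in the same order of comparisons (6.13%, 7.22%, 10.2% and 2.96% of all genes). They split 3 above and 6 below 0 with age, 3 and 6 with treatment of old mice, 5 and 4 in APP/PS1 against littermate, and 5 and 4 with treatment of APP/PS1 mice. Their smallest p values belonged to Wee1, a mitotic kinase, at -0.22 and Lonrf3 at 0.19 with age, Ccrn4l, which encodes nocturnin, at -0.27 and Wee1 at 0.24 with treatment of old mice, Leo1 at 0.13 and Por at 0.11 in APP/PS1 against littermate, and Wee1 at 0.32 and Por at -0.16 with treatment of APP/PS1 mice (adjusted p = 0.659 to 0.997).

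Per1 and other clock genes also answer to neuronal activity, glucocorticoids and temperature, and lists of such genes were read beside them. Of 14 immediate early genes, 14 were above 0 with age (median log2 0.35), 13 above and 1 below with treatment of old mice (0.29), 0 above and 14 below in APP/PS1 against littermate (-0.50), and 13 above and 1 below with treatment of APP/PS1 mice (0.23). Over all genes tested, 8072 were above and 8554 below 0 with age, 8099 and 8418 with treatment of old mice, 8287 and 8188 in APP/PS1 against littermate and 7973 and 8151 with treatment of APP/PS1 mice. Dentate granule markers had log2 medians of 0.45, -0.86, -0.95 and 0.09 in the same comparisons, and their part was not tested. Limma and edgeR called none of the immediate early genes, with 0, 1, 5 and 0 at an unadjusted limma p under 0.05 (6.13%, 7.22%, 10.2% and 2.96% of all genes), and DESeq2 called Btg2 and Npas4 in APP/PS1 against littermate mice, where it called 1.54% of all genes. Npas4, a factor induced by neuronal firing, had -0.96 ± 0.284 (adjusted p = 0.259) and Btg2, an antiproliferative gene, -0.87 ± 0.271 (adjusted p = 0.297) in APP/PS1 against littermate mice, and Npas4 had 0.77 ± 0.342 (adjusted p = 0.678) with treatment of old mice. Arc had 0.68 ± 0.383 and Junb 0.54 ± 0.314 with age (adjusted p = 0.851 and 0.853), Fosb 0.46 with treatment of old mice, and Junb 0.35 and Fosb 0.30 with treatment of APP/PS1 mice. Of 16 glucocorticoid-induced genes, 15 were above and 1 below 0 with age (median 0.15), 7 and 9 with treatment of old mice (-0.02), 3 and 13 in APP/PS1 against littermate (-0.14), and 13 and 3 with treatment of APP/PS1 mice (0.14). With age, estimates of microglial markers were above 0 for 6 of 6 genes (median 0.32; summed level 379 to 541 CPM in old and 319.8 to 369 CPM in young libraries) and those of oligodendrocyte markers for 6 of 6 (median 0.20; 5409 to 7975 CPM in old and 3686 to 7706 CPM in young libraries). None of these markers was called by limma or at 0 in a group, and their part in the list's values was not tested. Limma and edgeR called no glucocorticoid-induced gene, with 4, 3, 2 and 0 at an unadjusted limma p under 0.05 and the same shares of all genes, and DESeq2 called Cdkn1a and Ddit4 in APP/PS1 against littermate mice. Ddit4, a stress-induced inhibitor of mTOR signalling, had 0.34 ± 0.102 with age (adjusted p = 0.535), -0.39 ± 0.086 with treatment of old mice (adjusted p = 0.678), -0.38 ± 0.094 in APP/PS1 against littermate (adjusted p = 0.210) and 0.15 ± 0.109 with treatment of APP/PS1 mice (adjusted p = 0.997). The metallothionein Mt1 had 0.35 with age and Mt2 -0.35 with treatment of old mice, Cdkn1a, a cell cycle inhibitor, 0.58 in APP/PS1 against littermate and Plin4 0.37 with treatment of APP/PS1 mice. Of 8 temperature-responsive genes, 4 were above 0 with age, 6 with treatment of old mice, 5 in APP/PS1 against littermate and 7 with treatment of APP/PS1 mice, with medians of 0.02, 0.05, 0.02 and 0.08. None was called by limma, edgeR or DESeq2, with 1, 1, 0 and 0 at an unadjusted limma p under 0.05 and the same shares of all genes. Cirbp and Rbm3, RNA-binding proteins induced by cold, had 0.16 and 0.22 with age, Dnajb1 0.24 and Hsp90aa1 0.11 with treatment of old mice, Hspa1b -0.57 and Rbm3 0.15 in APP/PS1 against littermate, and Cirbp -0.17 and Dnajb1 0.09 with treatment of APP/PS1 mice.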

How the data were processed

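Hippocampal RNA of 36 libraries was sequenced from polyadenylated transcripts. The authors deposited 4 tables of 12 libraries each, and these hold a signal per gene: normalized counts, not whole numbers, made with a scaling factor per library. STAR, DESeq2 and the build mm10 appear in the submitters' processing notes with no role or version. No column of values was left unused. Dividing each deposited column by the value of 1 read in that library gave whole reads for 100% of values within 0.001, and 12 libraries that stand in 2 tables gave identical reads in both. These recovered counts were used for CPM, depth and the count tests. APP/PS1 nanoligomer female 3 (0.913 M reads) was left out. Titles of 1 library and its column differ in 1 letter.

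Each comparison was fitted in its own table with limma 3.58.1 (R 4.3.3, trend) on log2(normalized count + 1), where the mean reached 10 or more; sex and group were the terms. P-values were adjusted by Benjamini and Hochberg over all genes and called under 0.05. Sex differences used a product term, and the difference of the treatment effects a joint fit with a mean, sex and group term per table. The limma fit was tried on simulated data with changes larger than any member's main estimate. That run therefore does not speak to changes of the members' size. Alternatives were edgeR 4.0.16 (quasi-likelihood, TMM) and DESeq2 1.42.0 on the recovered counts, pseudocounts of 0.5 and 5, no filter, TMM scaling, no sex term, a replicate block and each library left out. Leaving out 6 libraries (also in the fit of sex differences) with over 500 CPM of striatal or of thalamic and habenular markers, marker sums as covariates, the 36 pairs and the 20 marker relations were added after the values were seen. Correlations used log2(CPM + 0.5) as deviations from the mean of group and sex, with 100000 permutations within group and sex, two-sided, in Python 3.11.15 with numpy 2.4.6 and scipy 1.17.1. Figures were drawn with matplotlib 3.10.9. Replicate numbers do not pair the samples.

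Named were all 10 members, of each pathway list the genes called by limma or else the 2 with the smallest p, and the 6 genes with the highest and the 6 with the lowest r with Dbp and with Arntl, without predicted Gm and Rik genes. The members and the lists were chosen with earlier results of these data known. Of the 24421 symbols, 2349 had no reads. Gene positions and exon lengths are from the GENCODE annotation of GRCm38.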

Additional observations from a re-analysis of the deposited data

Results flagged for a closer look

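In 5 of the 60 groups of 5 or 6 libraries examined, counting each member in each group once, 1 library lay far from the rest by its CPM. Chance alone gives such a library in about 1 in 20 groups, which is 3 of 60. Cry1 had 21.1 CPM in APP/PS1 female 1, with 11.1 to 12.8 CPM in the other APP/PS1 libraries, and this library held 1786 CPM of striatal markers. Per2 had 36.5 CPM in old male 3, with 44.3 to 48.4 CPM in the other old libraries, and this library held 557 CPM of striatal markers. Littermate female 3 stood low for both Per2, at 46.3 CPM with 52.4 to 56.0 CPM in the others, and Tef, at 279 CPM with 310.1 to 323 CPM in the others. Its striatal marker sum was 109 CPM, inside the littermate range. Nr1d1 had 399.9 CPM in littermate female 1, with 286 to 319 CPM in the other littermates.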

How the results depend on the processing

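No member was called by limma under any setting tried. Counts of called members went to 1 with DESeq2 in old against young (Cry1) and to 1 in APP/PS1 against littermate mice (Per2), and the cause was not tested. Of 470 estimates with 1 library left out, 435 kept their direction and side of the threshold and 35 turned direction. Of 410 under other settings, 386 did so, 22 turned direction and 2 passed the threshold. The largest estimates that turned came with the shallow APP/PS1 nanoligomer female 3 kept. They were -0.68 for Per1, -1.55 for Per2, -1.63 for Dbp, -2.03 for Tef, -1.32 for Nr1d1 and -1.73 for Nr1d2. Others that turned are given below. The main estimates of some of these were not near 0, such as 0.16 for Ciart with treatment of old mice.

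Without the 6 marker-rich libraries, old against young turned for Tef (-0.035) and Nr1d2 (0.037), old nanoligomer against old for Per1 (0.076), and APP/PS1 against littermate for Nr1d1 (0.054) and Nr1d2 (-0.063). With marker sums in the fit they were 0.035 for Nr1d2 with age, -0.069 for Dbp, -0.042 for Nr1d1, -0.067 for Arntl and -0.039 for Ciart with treatment of old mice, and 0.11 for Nr1d1 and -0.11 for Nr1d2 in APP/PS1 against littermate mice. For Per1 in the last comparison edgeR gave 0.0042 and DESeq2 0.0064. Replicate numbers shared between groups gave correlations of deviations from -0.25 to 0.29 and do not pair the samples; with the replicate block 0 members were called, and the treatment of APP/PS1 mice turned for Per3 (-0.026) and Nr1d2 (-0.0012). Removing group means without sex turned Arntl with Tef (r -0.11) and with Ciart (0.16).

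With each library left out in turn, estimates that turned spanned, with age, -0.095 to 0.028 for Per2, -0.0014 to 0.094 for Per3, -0.032 to 0.076 for Tef and -0.050 to 0.038 for Nr1d2. With treatment of old mice they spanned -0.012 to 0.092 for Per2, -0.0040 to 0.18 for Dbp, -0.053 to 0.10 for Nr1d1 and -0.031 to 0.058 for Arntl. In APP/PS1 against littermate mice they spanned -0.058 to 0.10 for Per1, -0.069 to 0.060 for Nr1d1, -0.063 to 0.13 for Nr1d2 and -0.19 to 0.010 for Ciart. With treatment of APP/PS1 mice they spanned -0.026 to 0.14 for Per3 and -0.0012 to 0.17 for Nr1d2.

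The design takes 1 time point per mouse of unknown hour, so amplitude and phase cannot be told apart, and 5 or 6 libraries a group limit the size of difference that can pass over all genes.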
